A study of Mus musculus with 19 samples.

Results

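The genes described here are 4 CXC chemokines, Cxcl9, Cxcl10, Cxcl16 and Cxcl2, taken by symbol from a fixed list and followed in the brains of mice with chronic graft-versus-host disease (GVHD). All 4 were among the 13783 genes of the sorted-cell table, and Cxcl9, Cxcl10 and Cxcl16 were among the 15634 genes of the hippocampus table; Cxcl2 was analysed in the sorted cells only. Every mouse, controls included, had received 1100 cGy of total-body irradiation in a split dose and 5000000 marrow cells depleted of T cells (TCD). The GVHD mice had received 500000 splenic T cells as well, and the TCD mice none. RNA was sequenced from hippocampus on day 80 (3 GVHD and 3 TCD libraries). On day 70, cells were sorted from brain by flow cytometry. They gave 6 libraries of macrophages derived from donor bone marrow, all from GVHD mice, and 7 of host microglia, 4 from GVHD and 3 from TCD mice. Strain, sex, age and the marker that told donor from host cells are not given in the sources used here. It is also not stated whether donor and host libraries came from the same mice, so p-values measure the spread between these libraries.

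Chemokines are small secreted proteins that draw leukocytes along a concentration gradient to cells carrying the matching receptor. Cxcl9 and Cxcl10 are made by macrophages, microglia and other cells exposed to interferon, and bind Cxcr3, a receptor of activated T cells and natural killer cells. Cxcl16 is made as a membrane-bound protein that can be shed by the proteases Adam10 and Adam17, and binds Cxcr6, which effector and tissue-resident T cells carry. Cxcl2 binds Cxcr2 and is known above all for attracting neutrophils, so of the 4 genes it is the 1 that the name lymphocyte-recruiting chemokine describes least well.

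By the GENCODE annotation of GRCm38, Cxcl9 (ENSMUSG00000029417, chr5:92321347-92328079) and Cxcl10 (ENSMUSG00000034855, chr5:92346638-92348889) are neighbours on the minus strand, 18558 bases apart. Cxcl2 (ENSMUSG00000058427, chr5:90903871-90905938) lies on the plus strand of the same chromosome. Cxcl16 (ENSMUSG00000018920, chr11:70453983-70459984) lies on the minus strand of chromosome 11. The stretches of 250 bases before the RefSeq start sites (build GRCm38.p6) are shown for the 3 genes that have an entry. The means of Cxcl9 and Cxcl10 ranked the 3 sorted groups in 1 order and those of Cxcl2 in another, but the host groups overlapped in Cxcl2. Cxcl16, which has no entry, had the order of Cxcl9 and Cxcl10. Capitals mark the motif matches described after the sequences, each reading 5′ to 3′ toward the gene.
Cxcl9, chr5:92328080-92328329, minus strand: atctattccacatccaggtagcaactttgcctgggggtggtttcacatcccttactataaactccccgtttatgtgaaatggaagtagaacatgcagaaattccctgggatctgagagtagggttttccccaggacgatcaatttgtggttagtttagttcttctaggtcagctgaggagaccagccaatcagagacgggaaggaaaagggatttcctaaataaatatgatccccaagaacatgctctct
Cxcl10, chr5:92348890-92349139, minus strand: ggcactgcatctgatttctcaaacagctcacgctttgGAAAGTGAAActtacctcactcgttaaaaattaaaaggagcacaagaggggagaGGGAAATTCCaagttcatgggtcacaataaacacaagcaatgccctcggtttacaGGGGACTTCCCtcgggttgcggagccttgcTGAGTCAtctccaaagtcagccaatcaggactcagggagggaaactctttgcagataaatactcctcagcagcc
Cxcl2, chr5:90903649-90903898, plus strand: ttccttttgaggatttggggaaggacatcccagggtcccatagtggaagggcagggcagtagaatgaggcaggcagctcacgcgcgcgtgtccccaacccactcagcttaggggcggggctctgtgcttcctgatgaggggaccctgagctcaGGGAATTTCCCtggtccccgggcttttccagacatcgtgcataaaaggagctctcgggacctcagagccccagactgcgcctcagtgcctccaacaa
Both strands were searched for 4 motifs: the interferon-stimulated response element (ISRE) as GAAA, any 2 bases and GAAA again, the gamma-activated site (GAS) as TTCNNNGAA, AP-1 as TGANTCA and the NF-kB consensus. The Cxcl10 stretch held 1 ISRE match starting 213 bases before the start, 1 AP-1 match at 74 bases, and NF-kB matches at 159, 104 and 103 bases, the last pair overlapping. The Cxcl2 stretch held overlapping NF-kB matches at 97 and 96 bases. The Cxcl9 stretch held none of these letters. Of 32851 such stretches in the mouse genome, 2.98% held the ISRE, 7.02% the GAS, 6.75% AP-1 and 7.25% the NF-kB consensus. These matches describe letters only, and the last 28 bases of the Cxcl2 stretch lie inside the gene as GENCODE draws it.

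Estimated depths were 16673616 to 18546935 reads for hippocampus and 7901523 to 35844770 for sorted cells. Values below are the deposited normalised counts, which were scaled separately in each table and are not compared across them. The sorted groups carried the markers of their labels. The summed level of 8 microglial markers (P2ry12, Tmem119 and others) was 7147 to 11447 in donor macrophages, 34613 to 42215 in GVHD host microglia and 41830 to 51282 in TCD host microglia, and that of 7 macrophage markers (Ms4a7, Clec12a and others) was 73365 to 103980, 3285 to 6630 and 2002 to 3991. The 2 named macrophage markers made up little of that sum but separated the groups themselves. In the same order of groups Ms4a7 was 684 to 1031, 14.8 to 35.8 and 6.88 to 34.4. Clec12a was 208 to 373, 3.06 to 9.99 and 1.63 to 5.45. The description of TCD host library 1 reads Syn, an unexplained term, although the title has TCD. It stood furthest from its group (median correlation 0.932 with the other members). Library 1 was also the lowest by this measure in donor macrophages (0.936) and in GVHD host microglia (0.969). The titles of the sorted libraries also carry a lower or a higher API number, whose meaning is not stated, and library 1 of each group is the only one with the lower number. The differences of the 4 chemokines from TCD host microglia are given with and without TCD host library 1.

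The interferon-inducible gene Cxcl9 was high in both cell types of GVHD mice and low in host microglia of TCD mice, and was the most variable of the 4 in the donor cells. In donor macrophages its normalised count ran from 19.8 through a median of 79.4 to 191 (mean 96.3 ± 65.0, SD, n = 6). In GVHD host microglia it was 101, 32.0, 36.5 and 35.6 in libraries 1 to 4 (51.3 ± 33.2, SD, n = 4). In TCD host microglia it was 1.64, 4.71 and 10.7 in libraries 1 to 3 (5.70 ± 4.63, SD, n = 3). The donor and GVHD host ranges overlapped, while every GVHD library, donor or host, lay above every TCD library. No donor macrophages of TCD mice were sequenced. Between donor macrophages and TCD host microglia, cell type and transplant therefore cannot be told apart for any of these genes. In bulk libraries more producing cells and more RNA per cell cannot be told apart.

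Cxcl9 was higher in donor macrophages than in TCD host microglia by 3.88 ± 0.65 (SE) on the log2 scale of the normalised count plus 1 (limma, adjusted p = 4.34e-04). Without TCD host library 1 the difference was 2.98 (adjusted p = 0.00164). In this comparison all 4 chemokines passed an adjusted p of 0.05 and all were higher in the donor cells, beside 18.4% of all 13086 tested genes called higher. For all 4 every donor library lay above every TCD host library, as it did for 14.4% of all tested genes. Donor macrophages and GVHD host microglia were not shown to differ in Cxcl9 (0.78 ± 0.59, SE, adjusted p = 0.318, limma), with a 95% confidence interval from -0.49 to 2.06. That difference was 0.48 without donor library 1 and 1.13 without donor library 5.

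Between the 2 host microglia groups the Cxcl9 means differed 9.0-fold, from 5.70 to 51.3. The log2 difference was 3.10 ± 0.69 (SE), with a 95% confidence interval from 1.59 to 4.60. It ranked 63 by p among 13086 genes and did not pass the adjustment (limma, adjusted p = 0.141). None of the 4 chemokines passed in this comparison, where 0.107% of all tested genes did; at an unadjusted p under 0.05, limma gave 3 of the 4, beside 6.85% of all genes. The exact two-sided permutation test over these 7 libraries, unadjusted and 1 of 15 such tests run, gave p = 0.0286 for Cxcl9, the smallest p the design allows. Groups did not overlap, with GVHD above TCD, for Cxcl9, Cxcl10 and Cxcl16, and for 3.57% of all tested genes.

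The size of the Cxcl9 difference in host microglia moved with the libraries kept. It was 2.11 ± 0.61 (SE, adjusted p = 0.463) without TCD host library 1 and 2.72 ± 0.77 (SE, adjusted p = 0.588) without GVHD host library 1. In libraries of the higher API number alone it was 2.12 ± 0.66 (SE, adjusted p = 0.614), and the single libraries of the lower number, 101 and 1.64, differed by 5.27. The library of the lower number had the highest Cxcl9 in both GVHD groups and the lowest in the TCD group.

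T-cell and cytotoxic-cell markers, 13 of 15 listed genes measured, were highest in the GVHD libraries with the highest Cxcl9. Their summed level in GVHD host microglia was 50.8 in library 1 and 23.8, 15.9 and 12.9 in libraries 2 to 4, of which library 2 had the lowest Cxcl9. In donor macrophages it was 58.2 in library 1 and 6.66 to 25.3 in the others, and the lowest sum and the lowest Cxcl9 were both in library 5. In TCD host microglia it was 21.8 in library 1, the highest of that group, where Cxcl9 was lowest. Cd3e, a subunit of the T-cell receptor complex, stood at 0.270 to 5.65 in donor, 0.892 to 4.80 in GVHD host and 0.543 to 1.82 in TCD host libraries, and no listed marker measured was at 0 throughout a group. Their part in the Cxcl9 levels was not tested.

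Cxcl10, the other Cxcr3 ligand, followed the same order of group means over a narrower range. Its normalised count in donor macrophages ran from 28.2 through a median of 40.3 to 81.1 (43.8 ± 19.5, SD, n = 6). In GVHD host microglia it was 31.5, 25.3, 27.7 and 26.7 (27.8 ± 2.63, SD, n = 4), the tightest group of any of these genes at a coefficient of variation of 9.47%. In TCD host microglia it was 5.10, 21.1 and 13.9 (13.3 ± 8.0, SD, n = 3). The donor range overlapped that of GVHD host microglia, and both lay above the TCD range.

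Donor macrophages exceeded TCD host microglia in Cxcl10 by 1.68 ± 0.37 (SE) on the log2 scale (limma, adjusted p = 0.00307), and by 1.18 (adjusted p = 0.0165) without TCD host library 1. Against GVHD host microglia the donor difference was 0.52 ± 0.33 (SE, adjusted p = 0.245), with an interval from -0.20 to 1.24. GVHD host microglia differed from TCD host microglia by 1.16 ± 0.39 (SE, adjusted p = 0.478; exact permutation p = 0.0286, unadjusted). Without TCD host library 1, which had the lowest value, that difference was 0.62 ± 0.35 (SE, adjusted p = 1). Art3, a gene on the opposite strand that overlaps Cxcl10, stood at 0.671 to 6.22 in the sorted libraries, and its mean was highest in GVHD host microglia.

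**Figure D1:**
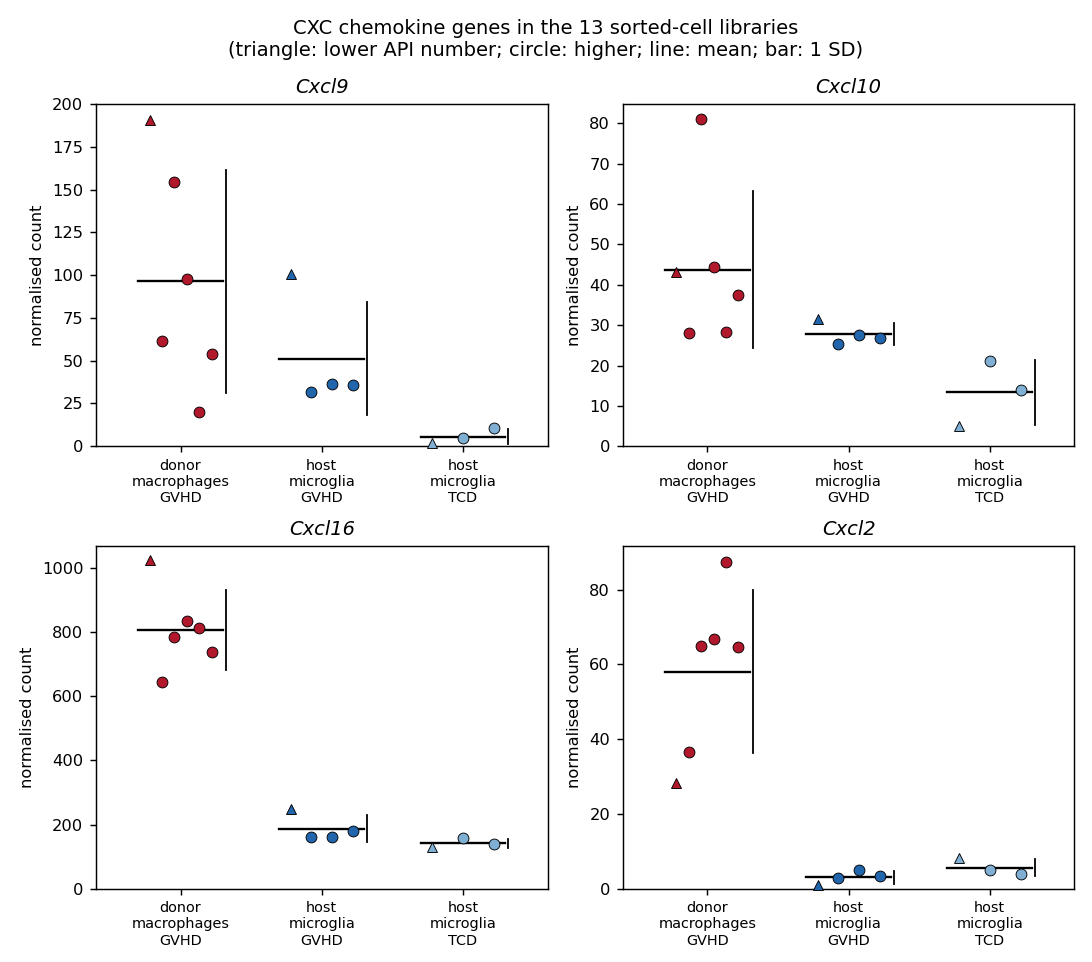
Normalised counts (linear axes from 0, one panel per gene) of the 4 chemokine genes in the 13 sorted libraries by group, with triangles for the lower and circles for the higher API number, a line at the mean and a bar of 1 SD. Cxcl9, Cxcl10 and, by a narrow margin (160 against 158), Cxcl16 lie higher in every GVHD library, donor or host, than in every TCD host library. Cxcl16 (646 to 1024 against 130 to 248) and Cxcl2 (28.3 to 87.3 against 0.897 to 8.18) separate the donor macrophages from both groups of host microglia.

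Cxcl16 separated donor macrophages from microglia of either transplant group. Its normalised count in donor macrophages ran from 646 through a median of 799 to 1024 (807 ± 126, SD, n = 6). It was 248, 160, 163 and 179 in GVHD host microglia (187 ± 41.1, SD, n = 4). It was 130, 158 and 139 in TCD host microglia (142 ± 14.1, SD, n = 3). The lowest donor library was above the highest microglial library, and the donor coefficient of variation, 15.6%, was the smallest of the 4 genes in those cells against 67.5% for Cxcl9.

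The donor mean of Cxcl16 was 4.31 times that of GVHD host microglia, a log2 difference of 2.13 ± 0.12 (SE, limma, adjusted p = 4.46e-08). In this comparison Cxcl16 and Cxcl2 were called higher in donor cells, 2 of 4 genes, beside 19.4% of all tested genes. These 2 were also the genes whose groups did not overlap; across all tested genes, 13.3% had every donor library above every GVHD host library. Against TCD host microglia the Cxcl16 difference was 2.54 ± 0.14 (SE, adjusted p = 3.39e-08), and 2.34 without TCD host library 1.

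The 2 host microglia groups were not shown to differ in Cxcl16, with a log2 difference of 0.40 ± 0.15 (SE, limma, adjusted p = 0.555) and an interval from 0.09 to 0.72. Without TCD host library 1 it was 0.19 ± 0.13 (SE, adjusted p = 1). Zmynd15, which overlaps Cxcl16 on the opposite strand, was higher where Cxcl16 was, at 42.8 to 174 in donor macrophages and 1.92 to 11 in host microglia. The labels call the libraries stranded, but whether the authors' counting used the strand is not given in the sources used here, so reads of the overlapping part cannot be told apart between these genes.

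Cxcl2 was higher in donor macrophages than in microglia of either transplant group, and had the largest of the 4 differences from GVHD host microglia. In donor macrophages it ran from 28.3 through a median of 64.8 to 87.3 (58.1 ± 21.8, SD, n = 6). In GVHD host microglia it was 0.897, 2.72, 4.97 and 3.52 (3.03 ± 1.70, SD, n = 4), which rest on an estimated 23 to 78 reads. In TCD host microglia it was 8.18, 4.89 and 3.86 (5.64 ± 2.25, SD, n = 3). Every donor library exceeded every microglial library, and the 2 microglial groups overlapped.

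Donor macrophages exceeded GVHD host microglia in Cxcl2 by 3.84 ± 0.33 (SE) on the log2 scale (limma, adjusted p = 1.22e-06), a 19.2-fold ratio of the group means. They exceeded TCD host microglia by 3.01 ± 0.36 (SE, adjusted p = 2.91e-05), and by 3.57 without TCD host library 1. The host groups differed by -0.84 ± 0.39 (SE, adjusted p = 0.720), the only one of the 4 genes with a lower mean in GVHD, and by -0.23 ± 0.30 (SE, adjusted p = 1) without TCD host library 1.

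Neutrophil markers, 8 of 9 listed genes measured, varied beside Cxcl2. Their summed level was 162 to 900 in donor, 384 to 434 in GVHD host and 321 to 654 in TCD host libraries, but in host microglia most of it was Csf3r, the receptor of a granulocyte growth factor, at 368 to 433 in GVHD and 319 to 543 in TCD libraries. The other 7 markers summed to 10.4 to 609 in donor, 0.382 to 21.0 in GVHD host and 1.93 to 111 in TCD host libraries. Against GVHD host microglia, donor macrophages were higher in 5 of the 8, S100a8 (3.69 ± 0.77, SE), Ngp (3.24 ± 1.19), S100a9 (3.01 ± 0.65), Retnlg (2.99 ± 0.48) and Ltf (2.45 ± 0.85), and lower in Csf3r (-0.92 ± 0.15), by limma at an adjusted p under 0.05. Of all tested genes 19.4% were called higher and 19.2% lower in that comparison, in which Cxcl2 was higher too. Against TCD host microglia, where Cxcl2 was also called higher, 3 of the 8 markers were higher and 1 lower. The shares over all genes there were 18.4% and 18.6%. Donor library 1, with the highest sum, had the lowest Cxcl2 of the donor cells, and TCD host library 1, with the highest sum of its group, had the highest Cxcl2 there. Ngp, a neutrophil granule gene, ran from 0.217 to 317 in donor and from 0.117 to 8.06 in GVHD host libraries, and stood at 60.0, 9.48 and 0 in the TCD host libraries. Their part in the Cxcl2 levels was not tested.

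**Figure D2:**
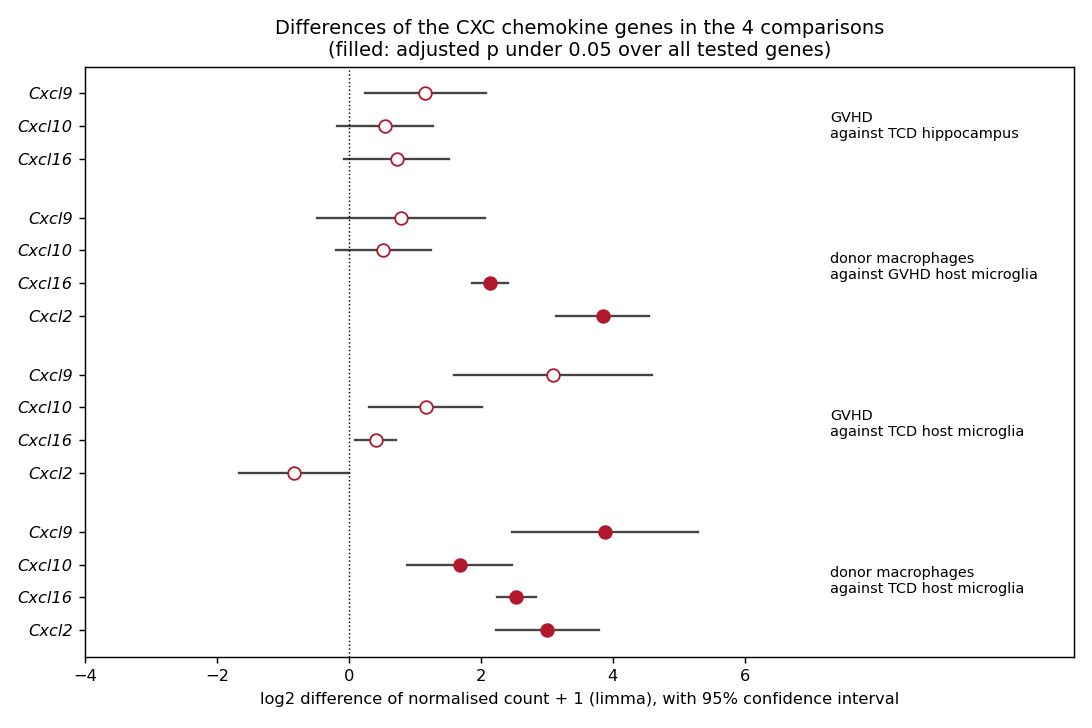
Log2 differences (x axis, of the normalised count plus 1) of each chemokine gene in the 4 comparisons, with 95% confidence intervals from limma; filled points have an adjusted p under 0.05 over all tested genes. The 6 filled points are Cxcl16 and Cxcl2 in donor macrophages against GVHD host microglia and all 4 genes against TCD host microglia, while the interval of Cxcl9 in GVHD against TCD host microglia runs from 1.59 to 4.60 with an open point.

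Levels of different genes were compared per kilobase of exon, by their order within a library and by their group means. Cxcl16 was the highest of the 4 in all 13 sorted libraries, with means per kilobase of 267 in donor macrophages, 62.0 in GVHD host microglia and 47.1 in TCD host microglia. Cxcl9 came next by its mean in donor macrophages (31.9 ± 21.6, SD, n = 6), but Cxcl2 (28.1 ± 10.5) and Cxcl10 (19.4 ± 8.68) lay within its spread. In GVHD host microglia Cxcl9 (17.0 ± 11, SD, n = 4) and Cxcl10 (12.3 ± 1.17) did not differ beyond their spread either, and Cxcl2 was lowest at 1.46 ± 0.821. The higher Cxcl9 mean there came from library 1 (33.5 against 14.0 for Cxcl10), while Cxcl10 was above Cxcl9 in libraries 2 to 4. In TCD host microglia the means of Cxcl10 (5.92 ± 3.55, SD, n = 3), Cxcl2 (2.73 ± 1.1) and Cxcl9 (1.89 ± 1.54) followed in that order, each within the spread of its neighbour. By these means Cxcl9 was the second of the 4 in donor macrophages and the last in TCD host microglia.

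In whole hippocampus the 3 measured chemokines were low, and the GVHD mean was the higher for each. Cxcl9 was 5.13, 3.24 and 3.23 in GVHD libraries 1 to 3 and 2.38, 1.78 and 0.0612 in TCD libraries 1 to 3, which rest on an estimated 95, 57 and 55 reads against 41, 30 and 1. All 3 GVHD libraries lay above all 3 TCD libraries, as they did for 10.8% of all 14404 tested genes. The log2 difference was 1.15 ± 0.40 (SE), with an interval from 0.23 to 2.07, and did not pass the adjustment (limma, adjusted p = 0.201). The exact permutation p was 0.1, the smallest that 3 against 3 can give, and the difference was 0.64 without TCD library 3, whose value rests on 1 read.

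Cxcl10 in hippocampus was 2.92, 1.02 and 1.82 in GVHD and 1.34, 1.37 and 0.306 in TCD libraries, on an estimated 5 to 54 reads. The groups overlapped, and the log2 difference was 0.54 ± 0.32 (SE, limma, adjusted p = 0.427), with an interval from -0.18 to 1.27; without TCD library 3 it was 0.26. Cxcl16 was 4.37, 7.10 and 2.52 in GVHD and 3.95, 1.96 and 1.35 in TCD libraries. Its groups overlapped, with a log2 difference of 0.72 ± 0.35 (SE, adjusted p = 0.342), an interval from -0.08 to 1.52, and 0.48 without TCD library 3. None of the 3 genes was called, where 0.479% of all tested genes were, and limma gave 1 of the 3 an unadjusted p under 0.05, beside 17.0% of all genes. Per kilobase, Cxcl16 was the highest of the 3 in 4 of the 6 libraries and Cxcl9 in GVHD libraries 1 and 3.

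Other cells' markers differed between the hippocampal groups as well. The summed level of 10 choroid plexus markers was 4584, 1632 and 5331 in GVHD libraries 1 to 3 and 178 to 266 in TCD libraries, so it was lowest of the GVHD group in library 2, where Cxcl16 was highest. The summed macrophage markers were 1927, 2900 and 1629 in GVHD and 1377 to 1964 in TCD libraries, highest in that same GVHD library 2. Ms4a7 (means of 3.52 in GVHD and 0.941 in TCD) and Clec12a (2.74 and 1.11) made up little of this sum. Other genes of the list carried it, so it is a poor measure of macrophages in whole hippocampus. The summed microglial markers overlapped, at 142 to 227 and 205 to 230. Of 15 T-cell and cytotoxic genes 3 were measured, and their sum was 5.24, 5.34 and 2.87 in GVHD and 1.22 to 1.86 in TCD libraries; Cd8a, the coreceptor of cytotoxic T cells, was 2.59, 2.16 and 1.35 against 0.698, 0.0594 and 0.428 (limma, adjusted p = 0.0867). Their part in the chemokine levels was not tested.

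**Figure D3:**
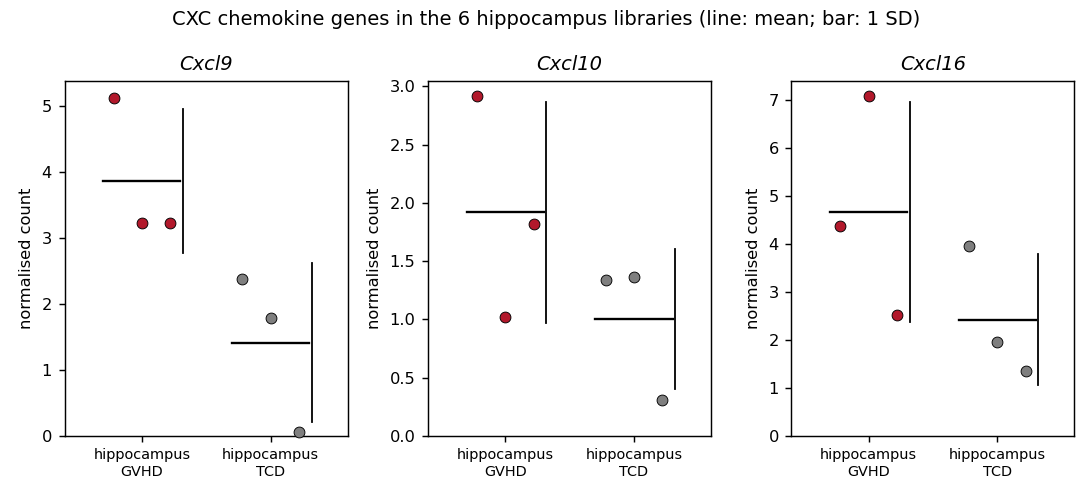
Normalised counts (linear axes from 0, one panel per gene) of Cxcl9, Cxcl10 and Cxcl16 in the 3 GVHD and 3 TCD hippocampus libraries, with a line at the mean and a bar of 1 SD. The Cxcl9 groups are separate (3.23 to 5.13 against 0.0612 to 2.38), and the groups of Cxcl10 and Cxcl16 overlap.

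Of the receptors, Cxcr3, to which Cxcl9 and Cxcl10 bind, was itself higher in the donor macrophages. It stood at 28.8 to 40.9 in the 6 donor libraries (34.5 ± 4.32, SD), 1.93 to 5.38 in the 4 GVHD host libraries (3.43 ± 1.44) and 1.57 to 4.28 in the 3 TCD host libraries (2.72 ± 1.40). The donor libraries did not overlap the others, with a log2 difference of 3.09 ± 0.19 (SE, limma, adjusted p = 6.10e-08) against GVHD and 3.40 ± 0.20 (adjusted p = 7.28e-08) against TCD host microglia. The donor library with the most T-cell marker signal, library 1, had a Cxcr3 level of 34.7, inside the range of the other donor libraries. The part of T cells in the Cxcr3 levels was not tested.

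Cxcr6, the receptor of Cxcl16, was low in all sorted groups, at 0.935 to 12.9 in donor, 0.908 to 6.05 in GVHD host and 0.362 to 3.37 in TCD host libraries. Its highest value in each group was in library 1, as was the summed level of the T-cell markers. Library 1 is also the only library of each group with the lower API number, so T-cell signal and API number cannot be told apart. Cxcr6 was called higher in donor macrophages than in TCD host microglia (0.80 ± 0.28, SE, limma, adjusted p = 0.0426), although the groups overlapped. The call was lost under 10 of 20 alternatives (adjusted p up to 0.562, without the API number in the model). Among these was the fit without TCD host library 1 (0.61 ± 0.32, SE, limma, adjusted p = 0.173). Against GVHD host microglia Cxcr6 was not called (0.18 ± 0.26, adjusted p = 0.613). In hippocampus Cxcr6 was 1.57, 1.42 and 1.11 in GVHD and 0.407, 0.119 and 0 in TCD libraries, without overlap (1.02 ± 0.22, SE, adjusted p = 0.0770).

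Cxcr2, the receptor of Cxcl2, ran from 0.270 to 12.3 in donor libraries and from 0.506 to 1.72 in the host libraries, and was not called in donor cells against GVHD host microglia (0.87 ± 0.51, SE, limma, adjusted p = 0.201). Of the 8 listed receptors and scavengers, 5 were measured in the sorted cells and 2 rose in donor macrophages against GVHD host microglia, beside 19.4% of all genes. They were Cxcr3 and Cxcr4, the receptor of Cxcl12, which stood at 5.21 to 7.56 in donor and 0 to 0.362 in host libraries (2.62 ± 0.13, SE, adjusted p = 1.88e-08). The list's median log2 difference was 0.87, beside 0.04 over all genes. No receptor was called between the host microglia groups, with none at an unadjusted p under 0.05 (6.85% of all genes), or in hippocampus, with 1 of 4 tested at that level by limma (17.0%).

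**Figure D4:**
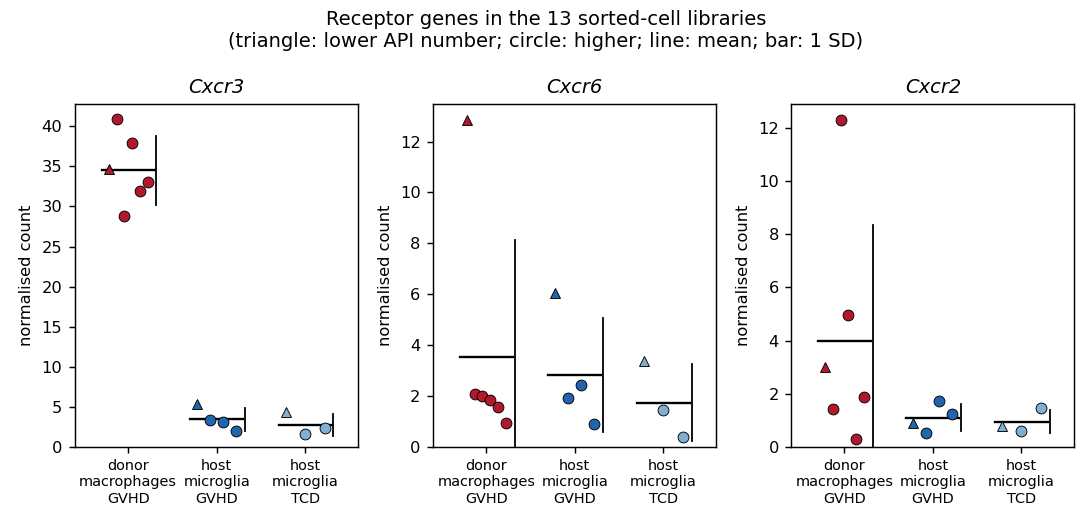
Normalised counts (linear axes from 0, one panel per gene) of the receptor genes Cxcr3, Cxcr6 and Cxcr2 in the 13 sorted libraries, with triangles for the lower and circles for the higher API number, a line at the mean and a bar of 1 SD. Cxcr3 separates donor macrophages (28.8 to 40.9) from host microglia (1.57 to 5.38), and the groups of Cxcr6 and Cxcr2 overlap.

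Among 7 measured genes for other CXC and CX3C ligands, 5 rose and 1 fell in donor macrophages against GVHD host microglia, with a median of 1.32; of all genes 19.4% were called higher and 19.2% lower. The largest was Pf4, a platelet and macrophage chemokine, at 53.6 to 135 in donor and 1.21 to 2.34 in GVHD host libraries (5.17 ± 0.38, SE, limma, adjusted p = 3.50e-07). Cxcl1, a further Cxcr2 ligand, had a mean of 3.13 against 0.241 (1.62 ± 0.27), and Cxcl12 (1.36 ± 0.25), Cxcl14 (1.32 ± 0.23) and Cx3cl1 (0.65 ± 0.23) were higher too. The gene that fell, singled out after its values were seen, was Cxcl11, the remaining Cxcr3 ligand, with means of 0.830 in donor and 3.24 in GVHD host libraries (-1.26 ± 0.35, SE, adjusted p = 0.0125). Against TCD host microglia the same 5 rose (Pf4 by 4.17 ± 0.42, Cxcl14 by 1.72 ± 0.26, Cxcl1 by 1.53 ± 0.30, Cxcl12 by 0.91 ± 0.28 and Cx3cl1 by 0.70 ± 0.25) and none fell, beside 18.4% and 18.6% of all genes. The Cx3cl1 calls were lost under 6 of 17 alternatives against GVHD and 8 of 16 against TCD host microglia, and the Cxcl12 call against TCD under 3 of 20. Cxcl11 was not called without GVHD host library 1 (adjusted p = 0.0524). Between the host groups none was called. By limma 3 of 7 had an unadjusted p under 0.05, Cxcl11 and Cxcl13 higher and Pf4 lower in GVHD, beside 6.85% of all genes. For these 3 genes TCD host library 1 held the TCD value furthest from the GVHD libraries. Pf4 stood at 15.2 there, 1.99 and 2.54 in the other TCD libraries and 1.21 to 2.34 in GVHD. In the same order Cxcl13 stood at 1.95, 34.2 and 46.7, and 59.5 to 377. Cxcl11 stood at 0.0433, 0.966 and 2.66, and 2.29 to 5.19. These 3 differences are not given without that library. In hippocampus none of 5 was called, with 2 at that level, Cxcl5 higher and Cx3cl1 lower, beside 17.0% of all genes.

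Of 10 genes of interferon-gamma signalling, the pathway upstream of Cxcl9 and Cxcl10, 1 rose between TCD and GVHD host microglia. It was Nlrc5, the activator of MHC class I genes, at 81.5, 28.0, 25.7 and 29.2 in GVHD and 17.5, 13.3 and 12.6 in TCD libraries (1.38 ± 0.19, SE, limma, adjusted p = 0.0134), where 0.0917% of all genes were called higher. The call depends on the fit. It was lost under 7 of 19 alternatives, with an adjusted p of 0.471 without the API number in the model, 0.221 with the replicate block, 0.177 with the 2 groups alone, 0.0829 in libraries of the higher API number alone, and 0.0869, 0.0544 and 0.0591 without GVHD host library 1, 2 or 4. The list's median difference was 0.12, beside -0.03 over all genes, and 5 of the 10 had an unadjusted p under 0.05, among them Ifngr1, which was lower (-0.31 ± 0.12); 6.85% of all genes were at that level. Against GVHD host microglia, donor macrophages were higher in Nlrc5 (1.2 ± 0.16) and lower in the kinase Jak1 (-0.32 ± 0.08). Against TCD host microglia Nlrc5 (2.58 ± 0.18), Irf1 (1.00 ± 0.15) and the checkpoint ligand Cd274 (1.64 ± 0.29) were among those that rose, and 2 fell, Ifngr1 (-0.44 ± 0.11) and Jak1 (-0.33 ± 0.09), beside 18.4% and 18.6% of all genes. In hippocampus none of 9 was called, with a median of 0.44 and 5 at an unadjusted p under 0.05 by limma, beside 17.0% of all genes.

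Of 7 genes of type I interferon signalling, 5 rose in donor macrophages against GVHD host microglia and none fell, with a median of 0.85; of all genes 19.4% were called higher and 19.2% lower, with a median of 0.04. They included the receptor chain Ifnar1, at means of 490 and 131 (1.98 ± 0.11, SE, limma, adjusted p = 3.80e-08), Irf7 (2.00 ± 0.29), Stat2 (0.85 ± 0.11; adjusted p = 0.116 without the API number in the model) and Irf9 (0.41 ± 0.09). The count against TCD host microglia was 5 as well, beside 18.4% of all genes. None was called between the host groups, with 2 of 7 at an unadjusted p under 0.05, 1 higher and 1 lower, beside 6.85% of all genes, or in hippocampus, with 4 of 7 by limma, all higher, beside 17.0%.

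The 12 genes of NF-kB signalling and inflammatory cues, linked to Cxcl2, split evenly in donor macrophages against GVHD host microglia, 4 higher and 4 lower, with a median of 0.24; of all genes 19.4% were higher and 19.2% lower, with a median of 0.04. Il1b, the interleukin-1 beta gene, was higher (2.15 ± 0.28, SE, limma, adjusted p = 5.37e-05), while Tnf (-1.95 ± 0.28), the NF-kB subunit Nfkb1 (-0.86 ± 0.15) and the chemokine Ccl4 (-1.31 ± 0.25) were lower. Without the API number in the model Tnf (adjusted p = 0.0838) and Ccl4 (0.265) were not called. Of 5 proteases that shed or trim chemokines, 3 were higher and 2 lower, to be read beside those same shares. Adam10, which sheds Cxcl16, was lower in donor macrophages, at a mean of 354 against 664 (-0.90 ± 0.09, SE, adjusted p = 5.56e-06). Dpp4, which trims Cxcl10, was higher (3.04 ± 0.51), as were the metalloproteases Mmp9 (3.58 ± 0.36) and Mmp12 (1.59 ± 0.30). Between the host groups none of these 17 genes was called, with 1 of 12 and 0 of 5 at an unadjusted p under 0.05 by limma, beside 6.85% of all genes. In hippocampus none of the 8 and 4 tested was called, with 2 and 0 at that level, beside 17.0%.

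The genes whose pattern over the 13 sorted libraries was most like each chemokine were found by the Pearson correlation of log2 values among 8024 genes with a mean of at least 10. All points share the same 3 groups, so these values describe group differences as much as variation between libraries. Nearest to Cxcl9 were the interferon-inducible GTPases Iigp1 (r = 0.98) and Gbp4 (0.97) and the MHC class II chaperone gene H2-DMb2 (0.97). Nearest to Cxcl10 were Cd300lf (0.95), the MHC class I gene H2-K1 (0.94) and Il12b (0.93), and Cxcl9 itself stood at 0.88. Nearest to Cxcl16 were Shtn1, the lysosomal gene Psap and the NADPH oxidase gene Cybb (each 0.99), and nearest to Cxcl2 were Grk6 (0.98), the AP-1 gene Fosl2 (0.98) and Fnip2 (0.97). Cxcl16 and Cxcl2 correlated at 0.88, and Cxcl9 and Cxcl2 at 0.35.

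Over the 6 hippocampus libraries, too few for such values to carry much weight, the genes nearest to Cxcl9 among 9538 were Ccnd2 (1.00), Nup54 (0.99) and Igtp (0.98), an interferon-inducible GTPase. Those nearest to Cxcl10 were Dcp2 (0.99), Cwc22 (0.98) and Sec11a (0.98). Those nearest to Cxcl16 were the macrophage genes Mpeg1 (0.99) and C1qc (0.98) with Ipo9 (0.99). Cxcl9 and Cxcl10 correlated at 0.90.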

How the data were processed

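RNA was measured in 19 libraries. Per the submitters' processing notes, the authors used cutadapt 1.9, STAR 2.5.2a and RSEM 1.2.30 with build GRCm38; the role of each tool, the annotation and the scaling are not given in the sources used here. The deposited tables hold a signal, counts normalised by the authors separately for each table. Of values under 100 reads, 80.1% to 81.8% (hippocampus) and 68.0% to 74.1% (sorted) were whole multiples of 1 read within 0.02 reads, so whole counts were not recovered and read numbers are estimates. The kit used for each library is not stated.

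Tests covered genes that reached 1 in 3 or more libraries, on log2(value + 1), which understates changes of low genes, with limma 3.58.1 in R 4.3.3 (mean-variance trend, two-sided, Benjamini-Hochberg over all tested genes, called at an adjusted p under 0.05). The sorted model held all 13 libraries with API number as a covariate; log2 differences are from these models, and fold ratios are of group means. The 3 sorted comparisons share groups. Single genes also had an exact permutation test over libraries (Python 3.11.15). The fits were tested on simulated data. The 4 members, the lists, the markers and the rule for named genes were chosen with earlier results of these data known. Named genes were the members, up to 4 called genes of each list by smallest p, 3 receptors, and the 3 genes nearest each member; markers stand beside results, and Cxcl11, Cx3cl1, Ifngr1, Jak1, Cxcl13 and Cxcl5 were also named, after their values were seen, to complete short counts. Lists are described by counts and medians, with no test.

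Donor and GVHD host libraries that share API and description number deviated together from their group means (r = 0.394, 0.362, 0.166 and 0.280). So did donor and TCD host libraries of the same title number (0.585, 0.308 and 0.415). By title number, donor and GVHD host libraries gave 0.394, 0.170, -0.022 and 0.016. GVHD and TCD host libraries gave 0.222, -0.016 and -0.017. The API number, lower only in library 1 of each group, was not removed from these deviations. These values therefore cannot tell paired libraries from a shared API number. All these numbers of the libraries come from the labels. Alternatives covered pseudocount, filter, scaling, trend, GC content, API number, blocks and each library left out. Values of 1 listed gene are not reported here, although the counts and medians of its list include it.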

Additional observations from a re-analysis of the deposited data

Results flagged for a closer look

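Chance marks about 1 in 20 groups by the test used here, which asks whether the highest or lowest library is too far from its neighbour for the range of its group; 8 groups of 4 or 6 libraries were looked at and 2 were marked. In GVHD host microglia, Cxcl9 was 101 in library 1 and 36.5 in the next highest, a gap of 0.934 of the range of the 4 libraries, above the critical value at the 95% level. This is the library of the group with the lower API number, and has the highest summed T-cell markers (50.8), and the difference from TCD host microglia was 2.72 on the log2 scale without it and 3.10 with it. In donor macrophages, Cxcl10 was 81.1 in library 3 and 44.3 in the next highest, a gap of 0.694 of the range of the 6 libraries, again above the critical value. Without it the difference from TCD host microglia was 1.5 (limma, adjusted p = 0.00379), and with it 1.68. The same library had the highest Cxcr2 level of the donor cells, 12.3.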

How the results depend on the processing

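The chemokine differences were checked 312 times under the alternatives, in refits and in 15 exact permutation tests held to an unadjusted p of 0.05. Of these checks 310 kept their direction and their side of the threshold, and none reversed or lost a call. Of the 15 differences 6 were called. In hippocampus the exact permutation test cannot give a p under 0.1, so it could not change side there. The exact permutation test put 2 uncalled differences between GVHD and TCD host microglia under 0.05 without adjustment, Cxcl9 (3.05) and Cxcl10 (1.19), each at p = 0.0286. The pseudocount moved the low hippocampal values most: Cxcl9 from 1.15 to 2.09 with 0.1 and to 0.48 with 5. A filter at 5 left none of the 3 chemokines tested in hippocampus. The count of called genes there, 69, became 39 with quantile normalisation, 33 with GC correction, 16 with a replicate block, 11 with both GC correction and the block, and 0 without the variance trend (limma, 2343 at an unadjusted p under 0.05). Leaving out 1 library gave 0 to 123: 0 without GVHD library 3 or TCD library 2 (1828 and 1967 unadjusted), 2 when GVHD library 1 and 123 when TCD library 3 was dropped. Hippocampal title numbers did not pair the libraries (r = -0.163, -0.040 and -0.183). Between host microglia groups, 14 called genes became 2 with a replicate block, 1 in libraries of the higher API number alone and 0 with the 2 groups fitted alone (limma, 978 unadjusted). Leaving out 1 library gave 6 to 28: 6 without GVHD host library 1, 2 or 4, 28 without 3, and 7 without TCD host library 2. The replicate block changed no chemokine call in any comparison. The cause of these shifts was not tested. The hippocampal chemokines rest on 1 to 125 estimated reads, which limits what these libraries can show.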
